A study of Homo sapiens with 18 samples.

Results

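The genes of the REST repressor complex and of the neural splicing factors SRRM3 and SRRM4 were examined for 2 histone marks in V16D prostate cancer cells with and without the long non-coding RNA H19. The 9 genes (REST, RCOR1, RCOR2, SIN3A, HDAC1, HDAC2, KDM1A, SRRM3 and SRRM4) were chosen by name from 19671 protein-coding genes, and each was followed from 50 kb upstream of its start to its end. V16D is an established castration-resistant line derived from LNCaP. The V16D/CTL cells were transduced with a control lentivector and the V16D/H19 cells with a lentivector that overexpresses H19, in 3 biological replicates each, so both groups carry a lentivector and neither is untreated. Chromatin immunoprecipitation sequencing measured H3K4me3, a mark of active and poised promoters, and H3K27me3, the repressive mark of the PRC2 complex, in every replicate beside an input library. The comparison asks where these marks change when H19 is overexpressed.

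REST is a zinc finger repressor that silences neuronal genes outside the nervous system. It acts through 2 arms: SIN3A, a scaffold that carries the histone deacetylases HDAC1 and HDAC2, and the CoREST proteins RCOR1 and RCOR2, which bring the H3K4 demethylase KDM1A (LSD1) together with the same deacetylases. SRRM4 and its relative SRRM3 promote the inclusion of neural microexons. SRRM4 also directs a splice form of REST with reduced repressor activity, and in prostate cancer this factor is known for its link to the neuroendocrine state.

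The promoter sequences stand first, since REST, SRRM3 and SRRM4 had 3 different patterns of marks over them. Each line gives the 250 bases before the RefSeq start (GRCh38.p14), 5′ to 3′. Capitals mark GGGCGG or, on the other strand, CCGCCC, the GC box that SP1-family factors can bind.
REST promoter, chr4:56907650-56907899, plus strand: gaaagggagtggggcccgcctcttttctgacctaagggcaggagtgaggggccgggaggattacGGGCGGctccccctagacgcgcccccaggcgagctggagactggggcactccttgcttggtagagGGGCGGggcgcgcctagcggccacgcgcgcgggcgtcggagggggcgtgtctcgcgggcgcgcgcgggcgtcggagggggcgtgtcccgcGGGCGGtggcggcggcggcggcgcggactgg
SRRM3 promoter, chr7:76201646-76201895, plus strand: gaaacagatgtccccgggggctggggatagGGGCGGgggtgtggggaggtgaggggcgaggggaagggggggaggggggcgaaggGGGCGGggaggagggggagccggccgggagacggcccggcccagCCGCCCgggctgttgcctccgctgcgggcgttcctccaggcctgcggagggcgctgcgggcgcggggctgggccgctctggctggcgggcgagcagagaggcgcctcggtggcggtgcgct
SRRM4 promoter, chr12:118981291-118981540, plus strand: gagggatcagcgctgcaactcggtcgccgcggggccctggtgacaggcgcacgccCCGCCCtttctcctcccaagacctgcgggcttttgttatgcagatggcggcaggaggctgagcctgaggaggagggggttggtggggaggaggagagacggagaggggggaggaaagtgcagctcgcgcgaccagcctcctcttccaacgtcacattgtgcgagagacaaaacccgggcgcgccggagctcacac

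RefSeq promoter sequences were matched for 8 of the 9 genes, at 10 starts. All 10 windows were rich in C and G, from 62.0% to 79.2%, against a median of 58.0% over 35116 RefSeq promoter windows. CpG pairs numbered 36 at REST, 26 at SRRM3 and 20 at SRRM4, beside a median of 11 over all windows. The GC box occurred 3 times at REST, 3 times at SRRM3 and 1 time at SRRM4, and 42.6% of all windows held it. The letters CAGCACC, from one end of the element that REST binds, were found in 0 of the 10 windows on either strand (6.16% of all windows). GGACAG, from the other end, was found at RCOR1 and before the second start of REST (17.2% of all windows). These matches describe letters only.

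At their starts the genes differed in the marks they carried. REST, RCOR1, SIN3A, HDAC1, HDAC2 and KDM1A had an H3K4me3 peak within 1 kb of the start in 6 of 6 libraries and no H3K27me3 peak there in any library. Among all protein-coding genes, 54.0% had this pattern. SRRM4 had the opposite one, H3K27me3 at the start in 6 of 6 libraries and H3K4me3 in none, which 2.25% of genes shared. SRRM3 had H3K4me3 at the start in 2 of 3 V16D/CTL and 3 of 3 V16D/H19 libraries, without H3K27me3. RCOR2 had neither mark at its RefSeq start. The number of the 9 genes with an H3K4me3 peak at the start was 7, 7 and 6 in the V16D/CTL libraries and 7 in each V16D/H19 library, and with an H3K27me3 peak it was 1 in every library.

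The cell line was checked against markers. All 7 luminal genes (KLK2, KLK3, TMPRSS2, HOXB13, FOXA1, KRT8 and KRT18) had an H3K4me3 promoter peak in all 6 libraries, and the basal genes KRT5, KRT14 and TP63 had none in any. Of the neuroendocrine markers reported here, SYP had the peak in all 6 libraries, INSM1 in 1 V16D/H19 library and CHGA in none. The stromal gene COL1A1 had the peak in all 6 libraries. The stromal genes COL3A1 and DCN and the blood gene PTPRC had none in any. Across the 7 luminal genes the median log2 difference in summit reads, V16D/H19 minus V16D/CTL, was 0.04. KRT8 and KRT18 share a promoter site, which is counted for both genes in this median. Only KLK2 had an adjusted p under 0.05, with fewer summit reads at its promoter in V16D/H19 (log2 difference −0.87 ± 0.19, SE, adjusted p = 0.0132, limma). Its part in the values of the 9 genes was not tested. The lists held 20048 to 21934 H3K4me3 peaks and 55060 to 72289 H3K27me3 peaks per library. Their sequencing depth was not used here.

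Peak height was compared first as the MACS2 fold over input, the ratio of the ChIP pileup to the local background. None of the 16 H3K4me3 sites of the 9 genes with a peak in all 6 libraries passed an adjusted p of 0.05 in limma, and of all 15811 such sites 0% passed (1049 had an unadjusted p under 0.05, or 6.63%). The fold divides by a small background and varied widely between replicates, and on simulated data this fit did not recover doubled peak heights, so a missing call here says little. At the REST start it was 75.1, 48.2 and 67.4 in V16D/CTL against 55.5, 46.5 and 42.6 in V16D/H19. The number of reads at each summit was therefore recovered from the fold and its p-value, which was possible for 96.2% to 99.3% of peaks per library, a step chosen after seeing the data. Fitted with limma in the same way, 2.67% of 14275 sites passed with these reads. Of these sites 169 were higher (1.18%) and 212 lower (1.49%) in V16D/H19. Among the 15 sites tested at the 9 genes 1 passed, and it was lower in V16D/H19. An unadjusted p under 0.05 was found at 6 of the 15, beside 16% of all sites.

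**Figure D1:**
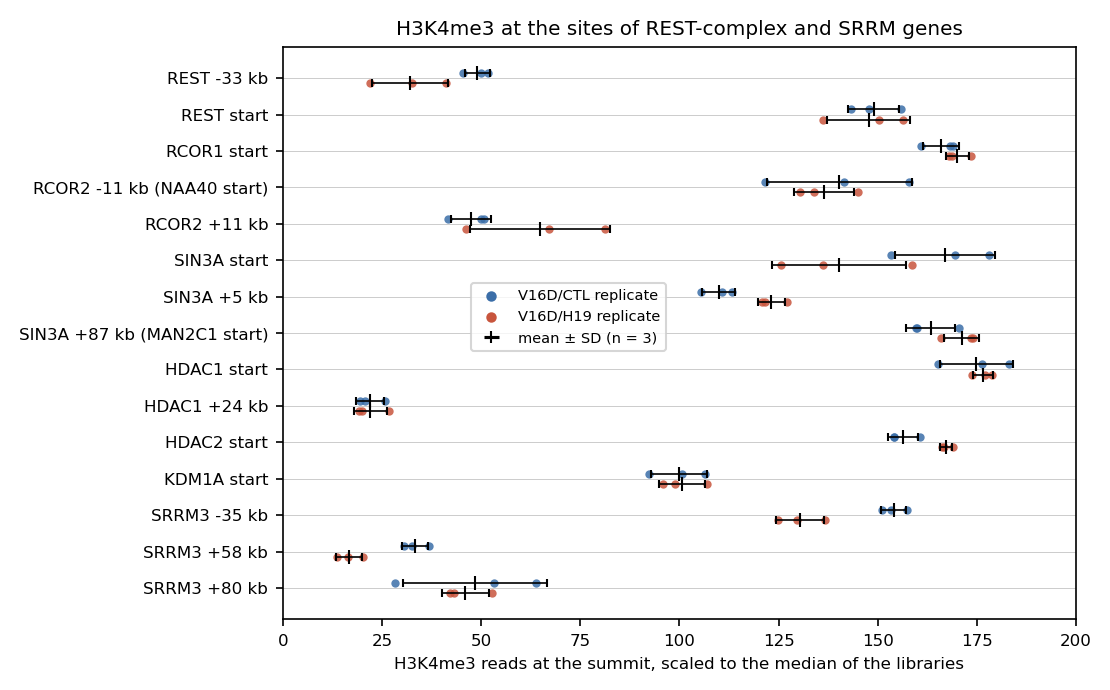
H3K4me3 reads at the summit (x axis, scaled so that all libraries share the same median) at the 15 tested sites (y axis, gene and distance of the site centre from the gene start). Points are replicates of V16D/CTL (blue) and V16D/H19 (red), with mean ± SD (n = 3). Start sites of the complex genes lie between 92.4 and 183 reads, with the widest gap between group means at SIN3A (167 against 140). The SIN3A values come from peaks at different positions, and the RCOR1 values from summits at different positions. REST −33 kb, SRRM3 −35 kb and SRRM3 +58 kb lie lower in V16D/H19 without overlap.

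REST itself had 2 H3K4me3 sites. The start site (chr4:56907053-56910325, 3273 bases wide) held 161, 155 and 136 reads at its summit in V16D/CTL against 152, 142 and 143 in V16D/H19. The groups overlapped. Scaled to the library medians, the means were 149 ± 6.51 and 148 ± 10.4 reads (SD, n = 3), and the log2 difference was −0.01 ± 0.07 (SE, adjusted p = 0.954, limma), with a 95% interval from −0.16 to 0.13. The summits lay 169 to 682 bases after the start, between it and a second RefSeq start at 56908910. REST had no H3K27me3 peak in its window in any library.

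The second REST site lay upstream, from −33.9 to −32.6 kb relative to the start (chr4:56873980-56875307), in a stretch without a RefSeq gene. The nearest start of another gene, SPINK2, was 52111 bases away. Its summits held 47, 56 and 46 reads in V16D/CTL against 40, 34 and 21 in V16D/H19, so each V16D/H19 library was lower than each V16D/CTL library. The scaled means were 49.1 ± 3.19 and 32.0 ± 9.57 reads (SD, n = 3), a log2 difference of −0.66 ± 0.19 (SE, 95% interval −1.05 to −0.27). The adjusted p of 0.0551 (limma) missed the threshold, and without V16D/H19 replicate 3 the difference fell to −0.42 (adjusted p = 0.210). With the fold over input it was −0.27 ± 0.37 (SE, adjusted p = 0.928). This stretch is 1 of the 1857 rows of the authors' table of differential H3K4me3 sites, with a mean concentration (log2 of normalized reads) of 6.61 in V16D/CTL against 5.76 in V16D/H19. Rows of that table overlapped 9.34% of all H3K4me3 sites. At REST, then, the upstream site had the lower values in V16D/H19, while the start differed by less than the spread between replicates.

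In the CoREST arm the differences at the RCOR1 and KDM1A starts were smaller than their SE. RCOR1, the scaffold that joins KDM1A to the deacetylases, held 166, 183 and 155 reads at its start in V16D/CTL against 164, 175 and 165 in V16D/H19 (chr14:102591118-102594526). The log2 difference was 0.03 ± 0.06 (SE, adjusted p = 0.853, limma). Its height exceeded that of 91.8% of 9374 promoter sites with a peak in all libraries, whose median was 122 scaled reads. KDM1A, the demethylase, was the lowest of the 6 starts, with 104, 100 and 98 reads against 104, 100 and 94 (chr1:23018415-23021800), above 35.4% of promoter sites. Its log2 difference was 0.01 ± 0.09 (SE, adjusted p = 0.970, limma).

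RCOR2, the CoREST relative, had no peak at its RefSeq start but an H3K4me3 site inside the gene (chr11:63915822-63918165). It lies 4.59 to 6.94 kb from the 3′ end of a RefSeq gene of 16.5 kb, whereas the GENCODE model of the gene is 5.94 kb long. If both models share their 3′ end, which was not checked, the site lies around the 5′ end of the shorter model. Its summits held 43, 55 and 46 reads in V16D/CTL against 79, 70 and 44 in V16D/H19. Replicates 1 and 2 of V16D/H19 were above every V16D/CTL library and replicate 3 was not. The scaled means were 47.5 ± 5.05 and 64.9 ± 17.6 reads (SD, n = 3), with a log2 difference of 0.42 ± 0.16 (SE, 95% interval 0.08 to 0.76) that did not pass (adjusted p = 0.187, limma). Without V16D/H19 replicate 3 it was 0.64 (adjusted p = 0.0197). The 2 other H3K4me3 sites of the RCOR2 window were the promoters of its neighbours NAA40 and COX8A.

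In the SIN3 arm, HDAC1 and HDAC2 were among the higher starts. HDAC1 held 189, 191 and 152 reads against 172, 181 and 170 (chr1:32291297-32293516), above 96.4% of promoter sites, with a log2 difference of 0.01 ± 0.06 (SE, adjusted p = 0.945, limma). A weaker site 24 kb inside HDAC1 had 20, 28 and 19 reads in V16D/CTL against 26, 20 and 19 in V16D/H19. HDAC2 held 159, 174 and 142 reads against 162, 176 and 158 at a start that it shares with the antisense gene HDAC2-AS2 (chr6:113969094-113972326). After scaling the HDAC2 groups did not overlap (156 ± 3.80 and 167 ± 1.44 reads, SD, n = 3), as at 9.35% of all sites in the higher direction, and the log2 difference was 0.10 ± 0.06 (SE, adjusted p = 0.497, limma).

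SIN3A had 2 neighbouring H3K4me3 sites near its 5′ end. The site over the RefSeq start (chr15:75452012-75456937, 4926 bases, wider than 97.9% of promoter sites) held 175, 166 and 164 reads in V16D/CTL against 122, 142 and 151 in V16D/H19. In scaled reads the groups overlapped, with means of 167 ± 12.6 and 140 ± 16.9 (SD, n = 3). The log2 difference was −0.26 ± 0.08 (SE, adjusted p = 0.0775, limma), with a 95% interval from −0.42 to −0.09. The site beside it (chr15:75449421-75451812), which spans a second RefSeq start, held 117, 120 and 97 reads against 118, 126 and 121, a log2 difference of 0.17 ± 0.08 (SE, adjusted p = 0.308, limma). Neither difference passed the adjusted threshold, and the difference between the 2 sites was not tested. Another site at the 3′ end of SIN3A was the promoter of MAN2C1.

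For the strongest sites the reads have a limited range. The top 1% of values began at 187 scaled reads and the highest was 228, and 5 of the 6 starts lay between 148 and 176 on average. By default MACS2 keeps a single read per position and strand, and the part of such a limit in the small differences at these starts was not tested.

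**Figure D2:**
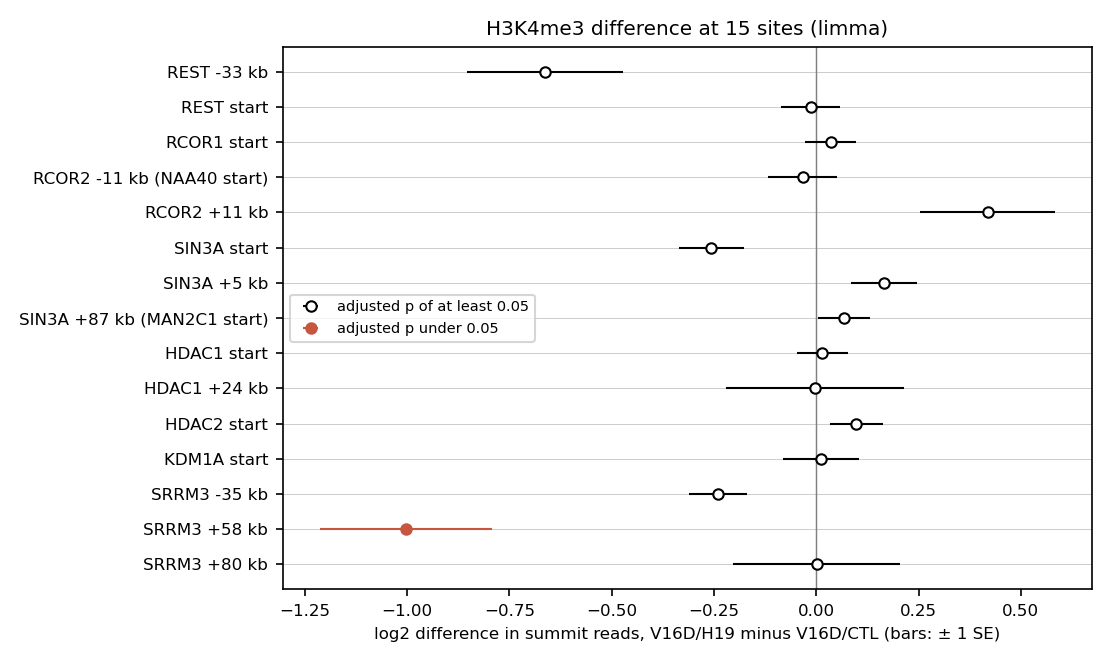
Log2 difference in H3K4me3 reads at the summit, V16D/H19 minus V16D/CTL (x axis, ± 1 SE, limma, 3 libraries per group), at the same 15 sites (y axis). The filled point, SRRM3 +58 kb at −1.0, is the site that passed an adjusted p of 0.05, and the 6 start sites lie between −0.26 (SIN3A) and 0.10 (HDAC2). The SIN3A value sets peaks at different positions against each other, and the RCOR1 value sets summits at different positions against each other.

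SRRM3, the relative of SRRM4 that acts in neurons and endocrine cells, had the most H3K4me3 regions of the 9 genes, 7 in all, of which 3 had a peak in all 6 libraries. The site 58 kb inside the gene (chr7:76259769-76260461) held 38, 33 and 30 reads in V16D/CTL against 16, 21 and 13 in V16D/H19. All V16D/H19 libraries were below all V16D/CTL libraries, as at 10.9% of all sites in that direction. The scaled means were 33.3 ± 3.23 and 16.8 ± 3.25 reads (SD, n = 3). The log2 difference was −1.0 ± 0.21 (SE, 95% interval −1.43 to −0.57, adjusted p = 0.00961, limma), and without V16D/CTL replicate 1 it was −0.93 with an adjusted p of 0.0582. The fold over input gave a similar difference, −0.99 ± 0.32 (SE), that did not pass (adjusted p = 0.607). In the authors' table this row has a concentration of 5.78 in V16D/CTL against 4.84 in V16D/H19 and lies at −4946 bases from the start of a shorter SRRM3 transcript. An H3K27me3 peak overlapped this site in V16D/H19 replicate 2 and in no other library.

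A strong intergenic site lay upstream of SRRM3, from −35.9 to −34.1 kb relative to its start (chr7:76165965-76167829), 57203 bases from the nearest start of another gene. It held 156, 166 and 145 reads in V16D/CTL against 126, 130 and 130 in V16D/H19, again with no overlap between the groups. The scaled means were 154 ± 3.21 and 130 ± 6.0 reads (SD, n = 3), and the log2 difference of −0.24 ± 0.07 (SE, adjusted p = 0.0622, limma) missed the threshold. The fold over input had the opposite sign here (0.21 ± 0.26, SE, adjusted p = 0.921). The authors' table gives a concentration of 8.62 in V16D/CTL against 8.29 in V16D/H19. The authors' H3K4me3 table held 3 rows of the 9 genes, at REST and SRRM3. All 3 were lower in V16D/H19. The share of lower rows over the whole table was not counted, so no common direction is read from them. None of the 3 lies within 1 kb of the RefSeq start of its gene. The H3K27me3 table held 1140 rows, which overlapped 3.15% of all H3K27me3 sites, and 0 rows of these genes.

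At the SRRM3 start the H3K4me3 peaks were small and their position differed between the groups. In V16D/CTL replicates 1 and 2 a peak from −0.502 to −0.149 kb relative to the start held 9 and 10 reads. In the 3 V16D/H19 libraries a peak from −0.137 to 0.334 kb (chr7:76201759-76202230) held 12, 10 and 12 reads, and no V16D/CTL library had a peak there. A site with 3 of 3 V16D/H19 and 0 of 3 V16D/CTL calls was found at 0.903% of all H3K4me3 sites. The reverse, V16D/CTL only, was found at 0 sites of the 9 genes and at 0.41% of all. The 2 stretches lie so close that merging peaks within 500 bases made them a single site called in 5 of 6 libraries. With 9 to 12 reads, a peak missing from a list was not read as an absent mark.

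Towards the 3′ end, SRRM3 carried both marks. The H3K4me3 site 79.4 to 81.3 kb from the start (chr7:76281255-76283220) held 55, 69 and 26 reads in V16D/CTL against 41, 55 and 41 in V16D/H19 at its tallest peak, with overlapping groups (log2 difference 0.00 ± 0.20, SE, adjusted p = 0.999, limma). The tallest peak was not at the same position in all libraries. In V16D/CTL replicate 3 it lay from 79.4 to 80.1 kb. In V16D/CTL replicate 2 and V16D/H19 replicates 1 and 3 it began at 80.3 to 80.4 kb. An H3K27me3 site called in all 6 libraries overlapped this H3K4me3 site (chr7:76280481-76283484). Such a pair of sites with both marks in all 6 libraries was found at 6.08% of 15811 H3K4me3 sites. In the SRRM3 window 1038, 1301 and 1087 bases lay under peaks of both marks in V16D/CTL against 1476, 1450 and 798 in V16D/H19. The groups overlapped (1142 ± 140 and 1241 ± 384 bases, SD, n = 3, exact permutation p = 0.8), and the sums include the single-library overlap at 58 kb and another at 65 kb in V16D/CTL replicate 2. None of the other 8 genes had a base under both marks in any library.

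**Figure D3:**
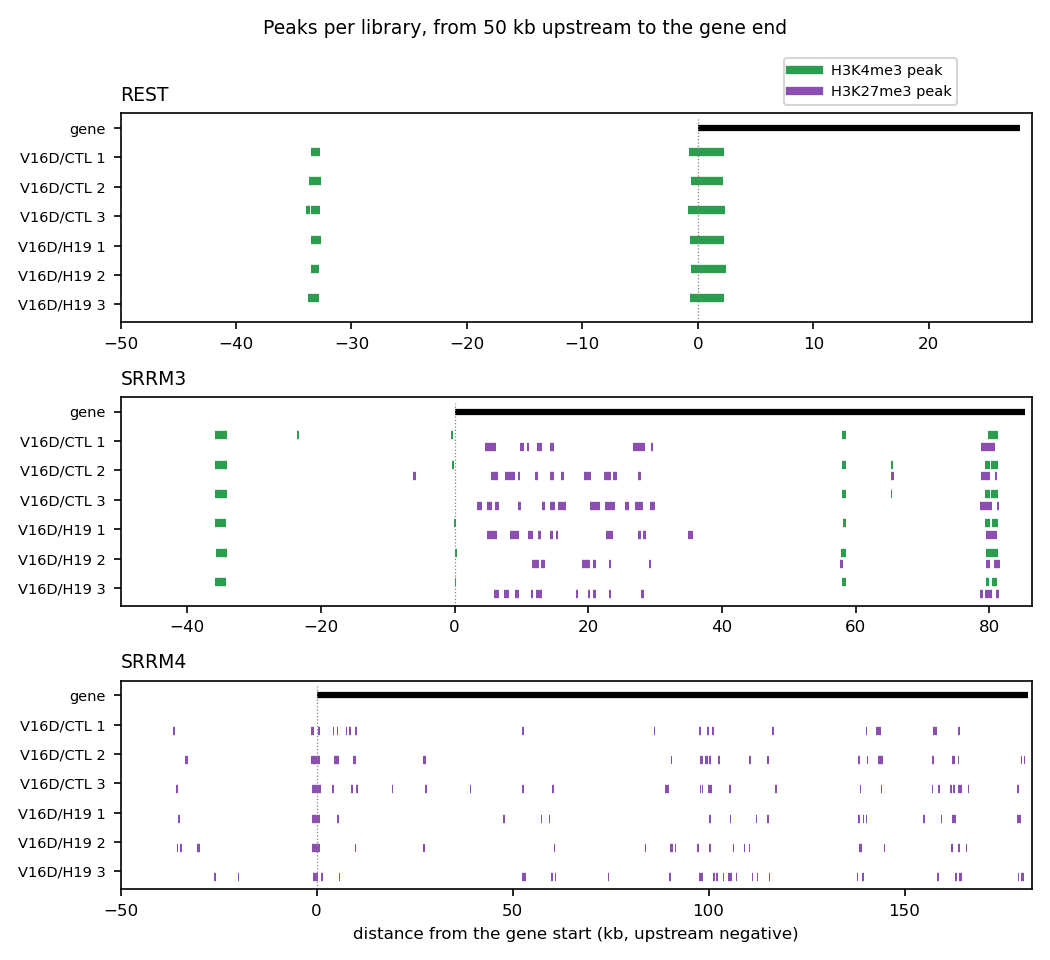
Peaks of H3K4me3 (green) and H3K27me3 (purple) per library in the windows of REST, SRRM3 and SRRM4 (x axis, distance from the gene start in kb; y axis, library; black bar, gene). REST has H3K4me3 at its start and at −33 kb, SRRM3 has H3K27me3 in the first part of the gene and both marks near 80 kb, and SRRM4 has H3K27me3 alone.

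H3K27me3 at the 9 genes was nearly confined to SRRM3 and SRRM4. REST, RCOR2, HDAC1, HDAC2 and KDM1A had no H3K27me3 peak in their windows in any library. RCOR1 had 292 and 316 bases in V16D/H19 replicates 2 and 3, and SIN3A had 373 bases in V16D/CTL replicate 3. A window without any H3K27me3 peak was found for 55.3% of protein-coding genes. The share of the window under H3K27me3 peaks was 6.56% for SRRM3 and 5.21% for SRRM4, above 92.2% and 90.3% of genes.

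In SRRM3 the H3K27me3 peaks lay mostly within the first 30 kb of the gene and again near 80 kb. They covered 8188, 10048 and 12899 bases in V16D/CTL against 9341, 5906 and 6914 in V16D/H19. V16D/H19 replicate 1 lay within the V16D/CTL range and the other 2 lay below it. The means were 10378 ± 2373 and 7387 ± 1766 bases (SD, n = 3), which was not a separation of the groups (exact permutation p = 0.2, where 0.1 is the smallest possible). Over all genes with any peak, 18.9% had lower covered bases in V16D/H19 without overlap and 2.28% had higher ones.

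In SRRM4 the H3K27me3 site at the start (chr12:118980049-118982632) had a fold over input of 3.98, 4.09 and 4.33 in V16D/CTL against 4.05, 4.29 and 4.82 in V16D/H19. The log2 difference was 0.13 ± 0.11 (SE, adjusted p = 0.843, limma), and 0% of 10934 H3K27me3 sites passed in that fit (814 had an unadjusted p under 0.05, or 7.44%). The rest of the gene held many short peaks. Of 56 merged regions 32 were called in a single library and 2 in all 6. Peaks covered 9193, 13671 and 14412 bases in V16D/CTL against 10554, 10901 and 13616 in V16D/H19, with overlapping groups (12425 ± 2824 and 11690 ± 1677, SD, n = 3, exact permutation p = 0.8). The highest −log10 q of any SRRM3 or SRRM4 peak was 3.84, so these are weak calls. A region 143 kb inside SRRM4 (chr12:119124302-119126009) was called in 3 of 3 V16D/CTL and 0 of 3 V16D/H19 libraries, as were 1.97% of H3K27me3 sites, but with lists of equal length it no longer was. The 9 genes had 0 H3K27me3 sites called in V16D/H19 only, beside 0.98% of all. SRRM4 had no H3K4me3 peak in its window in any library, as 17.5% of genes had none.

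**Figure D4:**
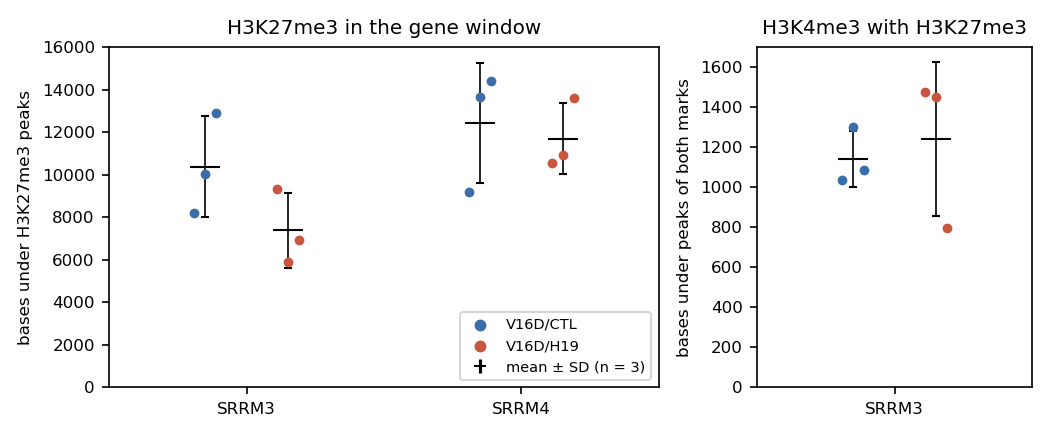
Bases under H3K27me3 peaks in the windows of SRRM3 and SRRM4 (left) and bases under peaks of both marks in the SRRM3 window (right). Points are libraries, V16D/CTL blue and V16D/H19 red, with mean ± SD (n = 3). The groups overlap in all 3 comparisons, and V16D/H19 lies lower on average for H3K27me3 at SRRM3 (7387 against 10378 bases).

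In H3K4me3 the covered bases of the 8 genes with a peak did not separate the groups at any gene (0 of 8), beside 5.77% of genes that were lower and 8.30% that were higher without overlap. The counts at REST were 3910, 3869 and 4320 bases in V16D/CTL against 3886, 3741 and 3907 in V16D/H19 (exact permutation p = 0.4). In summit reads 3 of the 15 sites were lower in V16D/H19 without overlap (REST −33 kb, SRRM3 −35 kb and SRRM3 +58 kb) and 2 were higher (SIN3A +5 kb and HDAC2), beside 10.9% lower and 9.35% higher of all 14275 sites. The median log2 difference of the 15 sites was 0.00, as for all sites.

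Other genes of the REST pathway were taken from lists. Of 21 further partners of REST, SIN3A or CoREST, 20 had an H3K4me3 promoter peak in all 6 libraries, as did 60.8% of all protein-coding genes. None of the 20 promoters passed in summit reads (median log2 difference −0.01), and none of the 21 genes had a row in the authors' tables or H3K27me3 coverage that separated the groups.

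Neuronal genes known as REST targets looked different. Of 17 listed, 9 had an H3K27me3 promoter peak in all 6 libraries, a state found for 6.44% of all genes. BDNF, STMN2, GRIN1, CHRNB2, CALB1 and VGF had it without H3K4me3 in any library, the pattern of SRRM4. SYN1, SYP, SYT4 and CELSR3 had H3K4me3 in all 6 libraries and H3K27me3 in none, and CHRM4 and UNC13A had both in all 6. None of the 8 target promoters tested passed in summit reads (median log2 difference −0.06), and 0 of the 15 with any H3K27me3 peak had coverage that separated the groups. SNAP25, a synaptic fusion protein, had H3K4me3 at its promoter in all 6 libraries and an H3K27me3 call there in 3 of 3 V16D/CTL and 0 of 3 V16D/H19 libraries, a state of the latter mark found for 0.290% of all genes. Its H3K27me3 coverage was 4534, 2971 and 5003 bases against 1195, 3196 and 1563, with overlapping groups. CHRNB2, a nicotinic receptor subunit, was the target with a row in the authors' H3K27me3 table.

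Among 17 other splicing regulators, SRRM1 and SRRM2, the broadly used relatives of SRRM3 and SRRM4, had H3K4me3 in all 6 libraries and no H3K27me3 at the start. None of 12 tested promoters of the list passed in summit reads. H3K27me3 coverage was lower in V16D/H19 without overlap for RBFOX3, MBNL1, MBNL2 and NOVA1 and higher for 0. These were 4 of the 9 listed genes with any H3K27me3 peak in their window, beside 18.9% lower and 2.28% higher among all genes with one. RBFOX3, the neuronal splicing factor NeuN, had 268667, 306960 and 318794 bases in V16D/CTL against 216336, 223418 and 225671 in V16D/H19. MBNL1, which acts in the splicing of developing muscle, had 17997, 24542 and 19571 bases against 12816, 9741 and 10972. Rows of the authors' tables named RBFOX1, ELAVL2 and MBNL1 for H3K4me3 and RBFOX3, ELAVL2 and MBNL1 for H3K27me3.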

How the data were processed

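The authors sequenced ChIP and input libraries and called peaks per replicate with MACS2 against its own input, narrow for H3K4me3 and broad for H3K27me3, without pooling (aligner and versions not given in the sources used here). Per the labels the build is hg38. Each deposited peak list gives a score, a fold over input (a ratio), and −log10 p and −log10 q values. In the 2 tables deposited by the authors (DiffBind, annotated with ChIPseeker), the group concentrations (log2) were used as the authors' means. Their fold, p-value and FDR columns, the authors' own comparison, were not used.

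For each mark, overlapping peaks from its 6 lists were joined into regions. Log2 folds, centred on each library's median, were compared with limma 3.58.1 (R 4.3.3; trend, no block, Benjamini-Hochberg) at sites with a peak in all 6 libraries. Whole H3K4me3 reads at summits were recovered by inverting MACS2's fold and Poisson p (tolerance 0.0005 in −log10 p; V16D/CTL replicate 2 carries a factor of 0.927) and fitted alike. Where a library had several peaks in a site, the tallest by fold was used. Scaled reads were multiplied to a shared library median of 98.8. Bases under peaks were compared with two-sided exact permutation tests over the 20 assignments of 6 libraries, which cannot go below p = 0.1. On simulated data the H3K27me3 fold and summit-read fits recovered most doubled sites and the H3K4me3 fold fit did not. Depth was not used, so no counting interval is given.

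Gene positions are RefSeq GRCh38.p14, with 1 start per gene, the outermost. The strand of RCOR2 came from GENCODE by symbol. Promoter calls used 1 kb around the start. The 9 genes and the lists of partners, targets, splicing regulators and markers were chosen with earlier results of these data known. From each list, genes with a passing promoter site, H3K27me3 coverage without overlap or a row in the authors' tables were counted, and up to 4 with the largest difference named; genes named for their promoter state were chosen after their values were seen. Some genes of these lists are not reported here.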

Additional observations from a re-analysis of the deposited data

How the results depend on the processing

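The SRRM3 +58 kb difference in summit reads kept its direction under all 5 other settings (−1.04 to −0.99, adjusted p from 0.00318 to 0.0114, limma) and without single libraries (−1.15 to −0.87, adjusted p from 0.00809 to 0.0582). REST −33 kb passed without centring (adjusted p = 0.0349), with quantile normalization (0.0450), with the replicate block (0.0443) and without V16D/H19 replicate 1 (0.0290), and ranged from −0.87 to −0.42 without single libraries. The SIN3A site over the start passed with quantile normalization (0.0393), the replicate block (0.0443) and without V16D/H19 replicate 3 (0.0146). Its V16D/H19 replicates 1 and 2 were read at a peak inside the gene, so these values do not measure a difference at the start. SRRM3 −35 kb passed with quantile normalization (0.0396) and without V16D/H19 replicate 3 (0.0475). Replicate numbers did not pair the libraries (same-number correlations near 0). Over all sites, summit reads gave 265 calls without centring, 498 with quantile normalization, 408 with the replicate block and 137 (without V16D/H19 replicate 1) to 327 without single libraries, against 381. H3K4me3 folds gave 0 throughout. H3K27me3 folds gave 3 without centring, 2 with the replicate block, 4 with 2 libraries per group, and 0 to 2 without single libraries. Genes with covered bases apart numbered 0 to 2 for either mark without single libraries. For the replicate block, genes were counted whose covered bases differed in the same direction in all 3 same-number pairs. There were 2 for H3K4me3 and 0 for H3K27me3, and this count does not need the groups to be apart. Past a −log10 q of 5, SRRM3 covered 35.3 more H3K4me3 bases in V16D/H19, and 14.7 more from 10 kb upstream, against 180 fewer. SRRM4 covered 1394 more H3K27me3 bases with lists of equal length and −2351 to 258 without single libraries. At that q, 0 genes had an H3K27me3 promoter call, 0 group-specific sites were left in either mark and H3K27me3 coverage gave no value. Merging within 500 bases left 0 group-specific sites in either mark, equal lists 0 in H3K27me3, and single libraries left out gave 1 to 2 (H3K4me3) and 1 to 3 (H3K27me3). The cause of these changes was not tested.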
